A study of Sus scrofa with 8 samples.

Results

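The genes described here encode enzymes of glycolysis, and their transcripts were measured in porcine pancreatic ductal organoids (PPDO), which are epithelial organoids grown from ducts of the pig pancreas. Members were the 9 symbols HK2, GPI, PFKP, TPI1, GAPDH, PGK1, PGAM1, ENO1 and LDHA, matched to the gene names of the deposited count table after its suffixes had been removed, and they are 9 of 30282 genes in it. Each symbol matched 1 gene, and all 9 passed the filter on low counts, which left 14475 genes for testing. Bulk RNA was sequenced from 4 PPDO lines, named Em, LPN, EPN1 and EPN2, each kept for a week in either complete or differentiation medium, for 8 libraries and n = 4 lines per medium. Em was derived before birth, EPN1 and EPN2 from early postnatal piglets and LPN from an adolescent pig, of a German landrace herd that held wild-type and INS-eGFP reporter animals. Which genotype a line has is not given in the sources used here.

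Both media shared the same basal medium, the N2 and B27 supplements, a TGF-beta receptor inhibitor, a ROCK inhibitor, nicotinamide and N-acetyl-L-cysteine. Only the complete medium also held prostaglandin E2, gastrin, the growth factors EGF and FGF10, and WNT3a, R-spondin and noggin, the last 3 of which came from a conditioned medium in routine culture. A line had 1 culture per medium, Em and LPN were the only lines of their stage, and p-values therefore measure the spread between these 4 cultures per medium. Library totals ranged from 40553593 to 47910657 counts. Levels are given in CPM, the counts scaled to a common library size after TMM normalization, which evens out differences in library composition. The log2 ratio of a gene sets differentiation over complete medium, so that a negative value is a lower level without the growth factors.

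Glycolysis turns glucose into pyruvate in the cytosol and yields ATP and NADH. Hexokinase traps glucose in the cell, phosphofructokinase commits it to the pathway, the enzymes from GAPDH on carry the energy-yielding steps, and lactate dehydrogenase turns pyruvate into lactate and restores NAD+. Growth factor signals and the hypoxia-inducible factors are known to raise transcription of many of these genes, and dividing epithelial cells often use the pathway heavily.

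The epithelial identity of the cultures was read first. Of 10 ductal epithelium markers, 9 were in the table and tested, and none differed between the media in edgeR (1 of 9 under an unadjusted p of 0.05, a rule met by 27.3% of all genes, and 1 higher in DESeq2). Under a line block CDH1, the adhesion protein E-cadherin, was higher (adjusted p = 0.0172). Their summed level was 6826 to 11212 CPM in complete medium and 3958 to 14785 CPM in differentiation medium, with KRT8, a keratin of simple epithelia, as the most abundant. KRT8 stood at 425 CPM in EPN2 in differentiation medium, against 1459 to 4906 CPM in the other lines there. The keratins KRT7 and KRT18 stood at 522 and 45.2 CPM in that library, against 1218 to 2837 CPM and 247 to 1398 CPM in the other lines. The chloride channel CFTR had 2.97 CPM there, against 25.1 to 128 CPM. EPCAM and SPP1 were also lowest in that library among the 4 in differentiation medium, whereas SOX9 and CDH1 were lowest in LPN. EPN2 was the lowest line for EPCAM and SPP1 in complete medium too, and its SPP1 level was 136 CPM there against 135 CPM in differentiation medium. EPN2 in differentiation medium thus stood apart on several ductal markers, and it is the library with the highest level of HK2; without it 8 of the 9 glycolysis enzyme genes were called lower, as with it. The part of these markers in the level of HK2 was not tested. The acinar markers summed to at most 1.79 CPM in any library, with CPB1 and PNLIP at 0 counts throughout. Islet markers reached 24.9 CPM in Em in differentiation medium, mostly from GCG, and at most 3.38 CPM elsewhere. Stromal markers summed to 147 to 420 CPM in complete against 217 to 543 CPM in differentiation medium, mostly from THY1, and without it to at most 32.6 CPM. Endothelial markers summed to at most 48.1 CPM, with KDR as the most abundant. Immune markers were dominated by CD79A at 1022 to 1804 CPM, and the rest of that list summed to 14.8 to 101 CPM. In that rest CD14 and CD68 reached 70.1 and 49.8 CPM, PTPRC had at most 2.17 CPM, and CD3E and CD3D had at most 1 count per library. Whether the reads counted as CD79A came from that gene was not tested. No gene of the islet, stromal, endothelial or immune lists that could be tested differed between the media in edgeR, with 0, 1, 1 and 2 genes under an unadjusted p of 0.05 and 0, 1, 0 and 1 called by DESeq2. Under that block the stromal PDGFRB and the immune ITGAM were lower (adjusted p = 0.016 and 0.0308). In bulk RNA, fewer cells of a type and less RNA per cell cannot be told apart.

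Of the 9 glycolysis enzyme genes, 8 were lower in differentiation medium at an adjusted p-value under 0.05 (edgeR quasi-likelihood test, Benjamini-Hochberg over all 14475 genes), whereas 4.10% of all genes tested were lower by that rule. HK2 was the gene not called, and no member was higher, against 2.87% of all genes. The median log2 ratio of the 9 was -1.52, beside 0.011 over all genes tested. With the line as a block, 8 members were lower as well (10.4% of all genes lower and 19.9% called in either direction), as they were in DESeq2 without a block (9.97% lower) and with it (18.0% lower). For the 8 genes called in edgeR, every library in differentiation medium lay below every library in complete medium, which held for 9.96% of all genes tested. Within lines, 35 of 36 changes were downward, and the exception was HK2 in EPN2. Of the 9 genes, 8 were lower within each of the 4 lines, against 24.2% of all genes. The members were chosen for their pathway with earlier results of these data known.

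**Figure D1:**
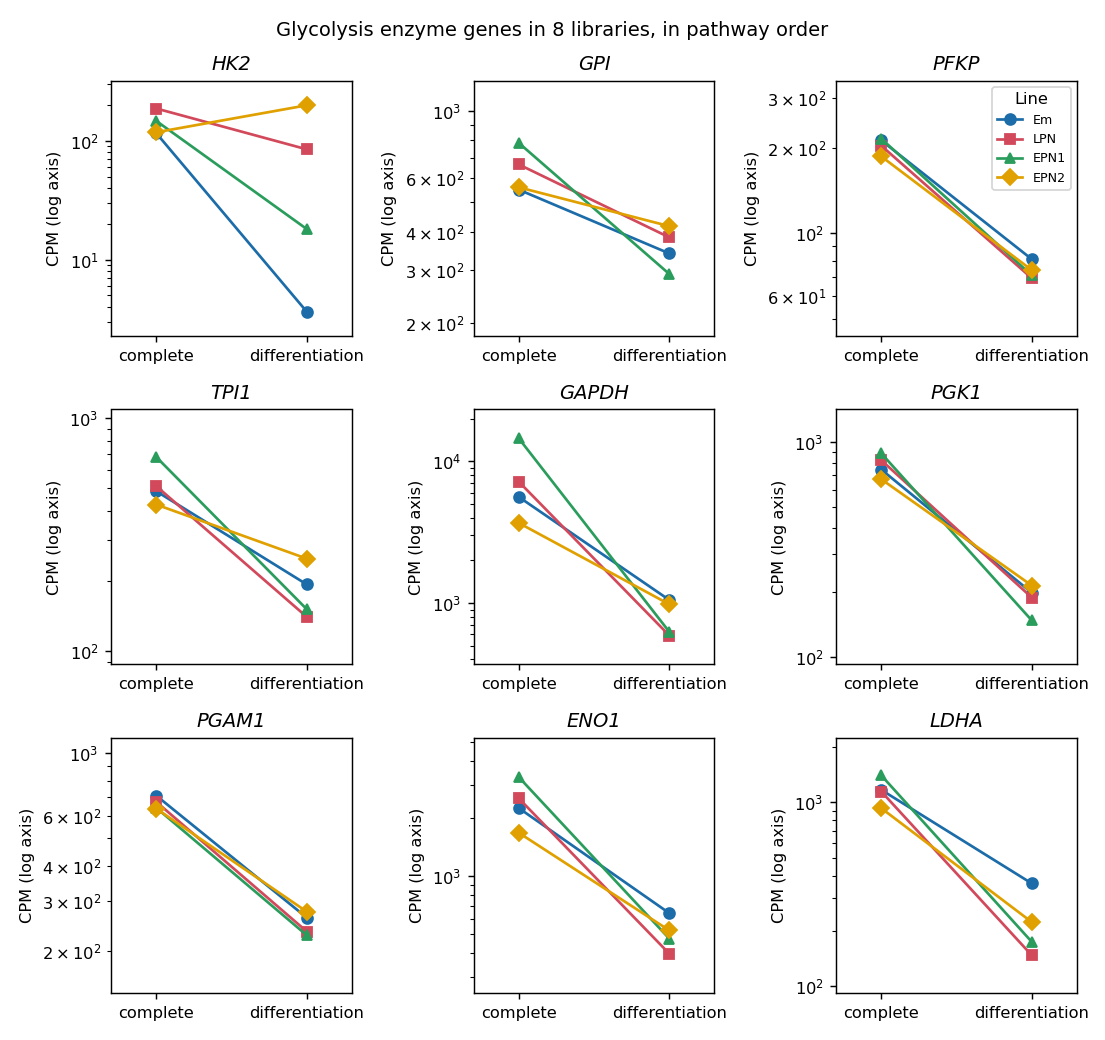
Level of the 9 glycolysis enzyme genes in CPM (log axis, a separate scale for each panel) in complete and differentiation medium, with 1 marker per library and a line joining both media of a PPDO line. All lines fall for every gene but HK2, which falls to 3.65 CPM in Em and rises to 199 CPM in EPN2.

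HK2 encodes hexokinase 2, the inducible enzyme of the first step. In complete medium it had 116 CPM in Em, 187 in LPN, 147 in EPN1 and 118 in EPN2. Its levels in differentiation medium were 3.65, 84.8, 18.1 and 199 CPM in the same order. The 4 lines were within 1.61-fold of each other in complete medium and spread over 54.4-fold in differentiation medium, so that the groups overlapped. Within lines, the log2 change was -4.81 in Em, -2.99 in EPN1, -1.14 in LPN and 0.75 in EPN2. The comparison of the media gave a log2 ratio of -0.90 (± 0.96 SE, adjusted p = 0.577, edgeR). With the line as a block the log2 ratio was -2.07 and the adjusted p 0.201, and without EPN2 in differentiation medium the adjusted p was 0.211. HK2 was not past the threshold in any of the fits.

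GPI encodes glucose-6-phosphate isomerase, the enzyme of the second step. The gene had 550 CPM in Em, 666 in LPN, 784 in EPN1 and 560 in EPN2 in complete medium, and 339, 383, 290 and 417 CPM in differentiation medium. Its highest level in differentiation medium was below its lowest in complete medium. GPI fell by 0.84 on the log2 scale (SE 0.17, adjusted p = 0.0337), the smallest change among the 8 genes called. That call depended on single libraries, since the adjusted p was 0.0550 to 0.102 without Em, LPN or EPN1 in either medium, and it was 0.0526 without the expression filter.

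PFKP encodes the platelet-type phosphofructokinase of the committed step. It had 213, 204, 216 and 187 CPM in Em, LPN, EPN1 and EPN2 in complete medium, and 81.0, 69.4, 71.0 and 74.1 CPM in differentiation medium. The lines barely differed in either medium, at 1.15-fold and 1.17-fold between the highest and the lowest. The log2 ratio was -1.47 (± 0.10 SE, adjusted p = 0.00221), the smallest adjusted p of the 9, and the within-line changes lay between -1.60 and -1.33. PFKP stayed past the threshold without any one of the libraries (adjusted p 0.00584 to 0.0178).

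TPI1 encodes triosephosphate isomerase, which interconverts the triose products of aldolase. Its levels in complete medium were 485, 510, 680 and 425 CPM in Em, LPN, EPN1 and EPN2, and in differentiation medium 193, 140, 151 and 249 CPM. The media did not overlap. TPI1 fell by 1.52 on the log2 scale (SE 0.23, adjusted p = 0.0167), by most in EPN1 and by least in EPN2. The adjusted p was 0.0516 without LPN in complete medium, 0.0519 without LPN and 0.0643 without EPN1 in differentiation medium.

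GAPDH encodes glyceraldehyde-3-phosphate dehydrogenase, which makes the NADH of glycolysis. In complete medium it had 5607 CPM in Em, 7183 in LPN, 14517 in EPN1 and 3673 in EPN2. In differentiation medium the levels were 1051, 590, 626 and 980 CPM. Its lines spread over 3.95-fold in complete medium, the widest of the 9 genes there, and over 1.78-fold in differentiation medium, and the media stayed apart. GAPDH fell by 3.25 on the log2 scale (SE 0.47, adjusted p = 0.0139), from a mean of 7745 ± 4737 to 812 ± 238 CPM (SD, n = 4). It had the largest or second largest fall of the 9 genes within every line, and that fall ranged from -1.91 in EPN2 to -4.53 in EPN1. Without LPN or EPN1 in differentiation medium the adjusted p was 0.0506 and 0.0612, with log2 ratios of -3.12 and -3.14.

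PGK1 encodes phosphoglycerate kinase 1, which makes the first ATP of the pathway. It had 743, 821, 883 and 670 CPM in Em, LPN, EPN1 and EPN2 in complete medium, and 199, 189, 148 and 215 CPM in differentiation medium. The levels did not overlap, and the log2 ratio was -2.05 (± 0.16 SE, adjusted p = 0.00263). PGAM1 encodes phosphoglycerate mutase 1. Its levels were 708, 673, 641 and 637 CPM in complete medium and 262, 234, 227 and 275 CPM in differentiation medium, a log2 ratio of -1.41 (± 0.12 SE, adjusted p = 0.00313). Like PFKP, PGAM1 was nearly level across the lines, within 1.11-fold in complete and 1.21-fold in differentiation medium. Both genes were past the threshold whichever single library was left out, with adjusted p-values of at most 0.0201 and 0.0272.

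ENO1 encodes alpha-enolase, which makes phosphoenolpyruvate. In complete medium it had 2263, 2542, 3279 and 1683 CPM in Em, LPN, EPN1 and EPN2, and in differentiation medium 642, 395, 473 and 522 CPM. ENO1 fell by 2.26 on the log2 scale (SE 0.25, adjusted p = 0.0073) and stayed past the threshold in each fit without 1 library. LDHA encodes the lactate dehydrogenase subunit that is most abundant in glycolytic tissues. It had 1169, 1145, 1401 and 929 CPM in complete against 362, 147, 174 and 223 CPM in differentiation medium. The media were apart for both genes. The log2 ratio of LDHA was -2.36 (SE 0.30, adjusted p = 0.012), and it was past the threshold in 7 of the 8 fits without 1 library, the exception being EPN1 in differentiation medium (adjusted p = 0.0527).

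**Figure D2:**
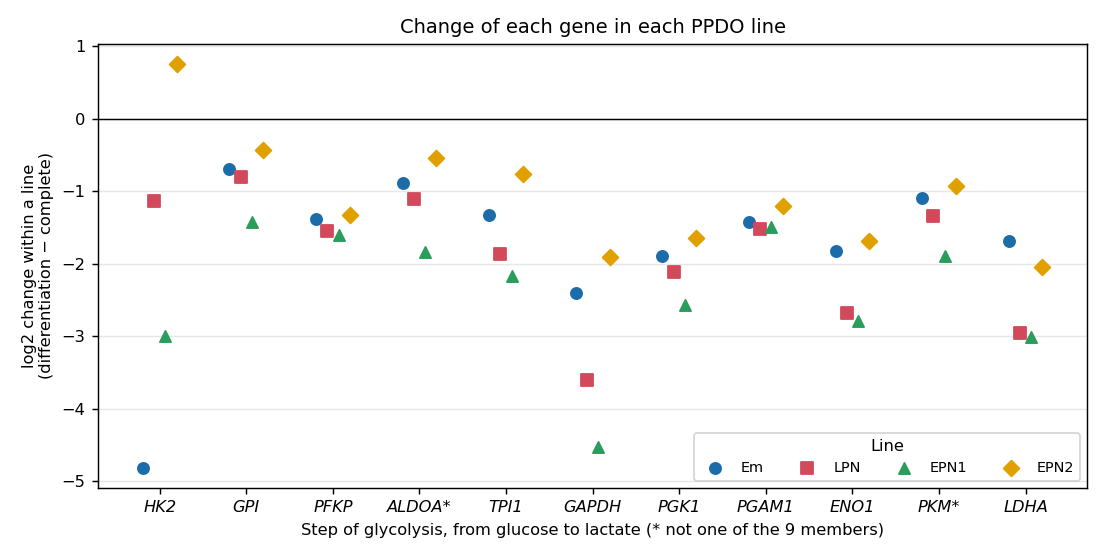
Change of each gene within each PPDO line, as log2(CPM + 0.5) in differentiation medium minus that in complete medium, in the order of the pathway, with ALDOA and PKM added. Markers stand for lines, and every change but that of HK2 in EPN2 is below 0, with EPN1 lowest for 7 of the 9 members.

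The lines differed in the size of the fall. The median change of the 9 genes was -2.57 in EPN1, -1.86 in LPN, -1.69 in Em and -1.33 in EPN2 on the log2 scale. EPN1 had the largest fall for 7 of the 9 genes and EPN2 the smallest for 8. Levels in complete medium were ordered alike, in that 7 genes were highest in EPN1 and 7 were lowest in EPN2. The falls are computed from these same levels, so that both orders are linked by arithmetic. In differentiation medium 5 genes were highest in EPN2 and 4 in Em, and none in LPN or EPN1. Since a line has 1 library per medium, these differences between lines were not tested. With both libraries of EPN1 or of LPN left out, no member was past the threshold, while 0 and 5 genes of the whole table were; the log2 ratio of each of the 8 genes stayed below 0 in both fits.

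Over the 8 libraries, the standardized levels of the members ran closely together. Pearson's r between a member and the mean of the other 8 was 0.949 to 0.993 for all but HK2, for which it was 0.552; these describe 8 libraries that share their medium and their lines. The largest r was that of PGK1. Genes outside the list whose levels were most like the mean of the 9 were AK4, CBARP, EGLN3, the unnamed gene ENSSSCG00000046707, NIPA1, CD164L2, STC1 and BCKDK, with r from 0.986 to 0.996 over the 8 libraries. Because they were picked by this r over libraries of both media, their falls and small adjusted p-values follow from the choice. AK4, a mitochondrial adenylate kinase, was the closest and fell from 196 ± 37.8 to 29.0 ± 6.08 CPM (SD, n = 4; log2 ratio -2.76 ± 0.21 SE, adjusted p = 0.00221). EGLN3, an oxygen-sensing prolyl hydroxylase, fell from 896 ± 244 to 96.1 ± 33.2 CPM (log2 ratio -3.22 ± 0.31 SE, adjusted p = 0.00568). BCKDK, the kinase that restrains breakdown of branched-chain amino acids, fell by 0.81 on the log2 scale (SE 0.11, adjusted p = 0.0126).

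The 9 genes took a sizeable share of the sequenced RNA. In complete medium they held 1.19% of library counts in Em, 1.41% in LPN, 2.19% in EPN1 and 0.854% in EPN2. In differentiation medium the shares were 0.317%, 0.232%, 0.231% and 0.295%. The ratio of the medians was 4.93. GAPDH alone was 41.3% to 64.4% of these counts in complete and 26.4% to 33.6% in differentiation medium, so that the mix of transcripts within the list shifted. Without GAPDH the other 8 genes held 0.501% to 0.781% and 0.165% to 0.211%, and the ratio of the medians was 3.51. Library sizes computed without the 9 genes left 8 members called.

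**Figure D3:**
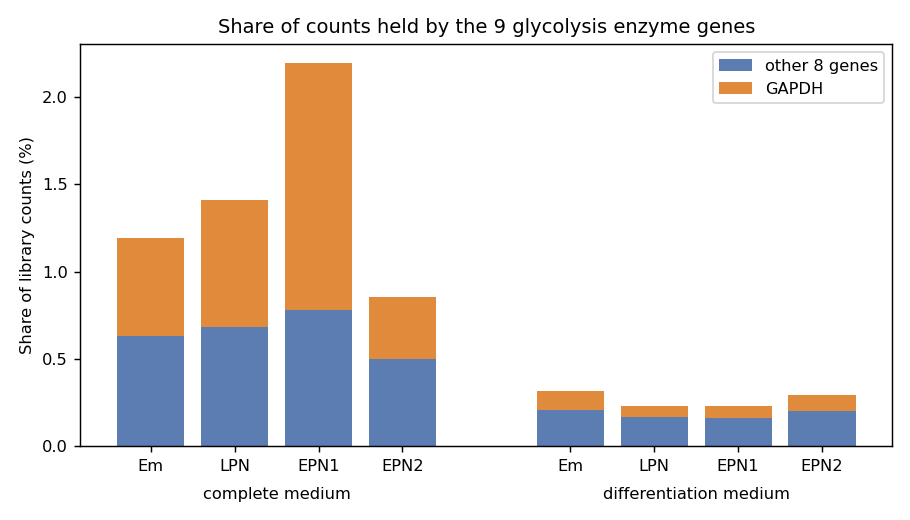
Share of all counts of a library (%) held by the 9 glycolysis enzyme genes, as stacked bars for GAPDH and for the other 8 genes, with 4 libraries per medium. EPN1 in complete medium has the highest share at 2.19%, and the 4 libraries in differentiation medium lie between 0.231% and 0.317%.

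GAPDH and PGK1 are often used as reference genes in expression assays. The list of reference genes fixed for this comparison had 13 genes in the table, all tested, of which 3 were lower and none was higher. Those lower were GAPDH, PGK1 and HPRT1, a purine salvage enzyme (32.1 ± 7.54 to 14.4 ± 4.22 CPM, SD, n = 4; log2 ratio -1.16 ± 0.26 SE, adjusted p = 0.0405). HPRT1 was past the threshold in 2 of the 8 fits without 1 library. Under the block GUSB, a lysosomal enzyme, was lower too (adjusted p = 0.0416). ACTB, which was singled out with its values known because it served as the reference of the study's quantitative PCR, had 968 ± 259 CPM in complete against 1073 ± 149 CPM in differentiation medium (log2 ratio 0.15 ± 0.21 SE, adjusted p = 0.683). The level of GAPDH over that of ACTB was 6.60, 7.69, 19.4 and 2.74 in Em, LPN, EPN1 and EPN2 in complete medium and 0.913, 0.683, 0.585 and 0.814 in differentiation medium.

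Isoenzymes, which catalyse the same step from another gene, were then examined. The aldolase ALDOA and the pyruvate kinase PKM, which fill the remaining steps, stand in the table without a symbol and were found through their Ensembl identifiers, ENSSSCG00000032556 and ENSSSCG00000001930. Of 20 further isoenzymes, 16 passed the filter, 6 were lower (HK1, ALDOA, ALDOC, ENO2, PKM and PKLR), none was higher and 10 were not called, with a median log2 ratio of -0.57. With the line as a block PFKL was lower too (adjusted p = 0.0246). PGK2, LDHC and GAPDHS were among those that did not pass the filter. PGK2 and LDHC, which are known from testis, had at most 3 counts in each library.

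**Figure D4:**
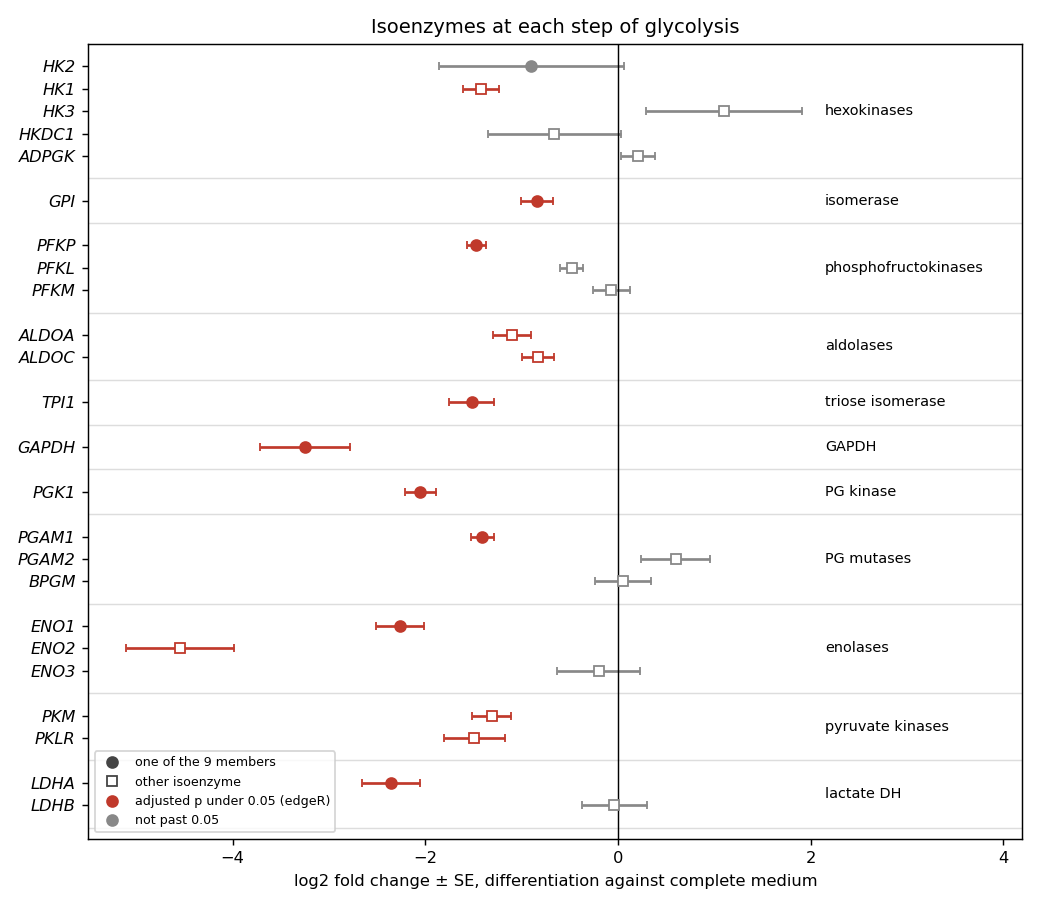
Log2 ratio of differentiation against complete medium with its standard error for the isoenzymes reported at each step, edgeR, n = 4 lines per medium. Filled circles are the 9 members and open squares the other isoenzymes, red marks an adjusted p under 0.05, and every step has at least 1 red symbol, all of them left of 0.

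ALDOA had 246, 305, 387 and 261 CPM in Em, LPN, EPN1 and EPN2 in complete medium and 132, 140, 108 and 178 CPM in differentiation medium (log2 ratio -1.10 ± 0.20 SE, adjusted p = 0.0252). Its adjusted p was 0.0555 to 0.0789 without LPN or EPN1 in either medium or without Em in differentiation medium. PKM had 2154, 2831, 3229 and 2647 CPM in complete against 1008, 1120, 873 and 1393 CPM in differentiation medium (log2 ratio -1.31 ± 0.20 SE, adjusted p = 0.0172). For PKM the adjusted p was 0.0535 to 0.0658 without LPN or EPN1 in either medium. Both genes were lower in 4 of 4 lines without overlap, so that each of the 10 steps from glucose to pyruvate, and the step to lactate, had at least 1 gene called lower.

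Among the hexokinases, HK1, the constitutive form, fell in every line, from 390, 381, 482 and 272 CPM in Em, LPN, EPN1 and EPN2 to 157, 142, 123 and 148 CPM (log2 ratio -1.42 ± 0.19 SE, adjusted p = 0.012). Without EPN1 in differentiation medium its adjusted p was 0.0527. The level of HK2 over that of HK1 was 0.298 in Em, 0.491 in LPN, 0.306 in EPN1 and 0.433 in EPN2 in complete medium. In differentiation medium it was 0.0233, 0.596, 0.147 and 1.34, so that the ratio dropped in Em and EPN1 and rose in LPN and EPN2. HK3 had 62.9 ± 35.3 and 135 ± 129 CPM (SD, n = 4; adjusted p = 0.413), and HKDC1 9.24 ± 5.97 and 5.85 ± 3.69 CPM (adjusted p = 0.57). ADPGK, which uses ADP in place of ATP, had 28.6 ± 5.32 and 33.1 ± 4.86 CPM (adjusted p = 0.471).

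Beside PFKP, the liver-type PFKL had 254 ± 20.6 CPM in complete against 182 ± 18.6 CPM in differentiation medium (log2 ratio -0.48 ± 0.12 SE, adjusted p = 0.0535), and its libraries did not overlap either. The muscle-type PFKM had 41.3 ± 4.56 and 39.4 ± 10.1 CPM (log2 ratio -0.068 ± 0.19 SE, adjusted p = 0.851). ALDOC fell from 116 ± 21.6 to 65.0 ± 9.49 CPM (log2 ratio -0.83 ± 0.17 SE, adjusted p = 0.0309), and was past the threshold in 3 of the 8 fits without 1 library. ENO2, the enolase of neurons, had 138, 149, 229 and 70 counts in Em, LPN, EPN1 and EPN2 in complete medium and 6, 3, 9 and 8 counts in differentiation medium (log2 ratio -4.55 ± 0.56 SE, adjusted p = 0.0105). It was the isoenzyme with the largest fall. ENO3, of muscle, stayed near 1 CPM in both media (1.26 ± 0.325 and 1.10 ± 0.550 CPM; adjusted p = 0.794). PKLR, the pyruvate kinase of liver and red cells, fell from 4.46 ± 0.395 to 1.59 ± 0.592 CPM (log2 ratio -1.49 ± 0.32 SE, adjusted p = 0.0379), a call present in 1 of the 8 fits without 1 library. PGAM2, of muscle, had 1.15 ± 0.283 and 1.74 ± 0.645 CPM (adjusted p = 0.314), and BPGM, which makes 2,3-bisphosphoglycerate, had 17.6 ± 4.32 and 18.2 ± 6.01 CPM (adjusted p = 0.927). LDHB, the subunit that is most abundant in oxidative tissues, had 4.60 ± 1.76 and 4.49 ± 1.16 CPM (log2 ratio -0.036 ± 0.34 SE, adjusted p = 0.959). Whether an isoenzyme and its partner differed in their response was not tested.

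Upstream of the pathway, glucose enters through transporters. SLC2A1 and SLC2A3 are not analysed here because their symbols matched no gene. Of the 9 transporters tested, 1 was higher and 2 were lower. SLC2A5, a fructose carrier, fell from 70.7 ± 38.3 to 0.910 ± 1.33 CPM (SD, n = 4; adjusted p = 0.0423) in all 4 lines. SLC2A12 fell by 2.44 on the log2 scale (SE 0.50, adjusted p = 0.0335), and SLC2A8, an intracellular glucose carrier, rose from 5.42 ± 0.952 to 11.2 ± 2.00 CPM (log2 ratio 1.05 ± 0.22 SE, adjusted p = 0.035). These 3 calls held in 2, 1 and 1 of the 8 fits without 1 library. Under the block SLC2A4, the insulin-responsive carrier, was lower as well (adjusted p = 0.0172).

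Among 10 regulators of glycolysis and of pyruvate use, 2 were lower and none was higher. PFKFB3 makes fructose-2,6-bisphosphate, the activator of phosphofructokinase. It had 593, 338, 556 and 124 CPM in Em, LPN, EPN1 and EPN2 in complete medium and 60.1, 21.3, 42.8 and 23.4 CPM in differentiation medium (log2 ratio -3.45 ± 0.57 SE, adjusted p = 0.0189). Its adjusted p was 0.0553 to 0.0726 without LPN or EPN1 in either medium. PDK1 phosphorylates and restrains pyruvate dehydrogenase, which feeds pyruvate into mitochondria. PDK1 had 133 to 199 CPM in complete against 29.2 to 47.2 CPM in differentiation medium (log2 ratio -2.06 ± 0.20 SE, adjusted p = 0.00581), and was past the threshold in all 8 fits without 1 library. Under the block 1 regulator was higher, namely TIGAR, a phosphatase that lowers fructose-2,6-bisphosphate (log2 ratio 1.21, adjusted p = 0.0145).

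The neighbouring pathways differed in how many of their genes were called, beside 6.97% of all genes tested called in either direction in edgeR. None of the 16 genes of the tricarboxylic acid cycle was called in edgeR, with 1 under an unadjusted p of 0.05, none in DESeq2, and 1 (SUCLG2, adjusted p = 0.0386) and 3 lower in edgeR and DESeq2 with the line as a block. Their summed level was 1909 to 2121 CPM in complete against 1782 to 1998 CPM in differentiation medium, and the median log2 ratio was -0.14. Of 8 genes of pyruvate oxidation, only PDHX, a structural subunit of the pyruvate dehydrogenase complex, was called (log2 ratio -0.92 ± 0.21 SE, adjusted p = 0.0442), in 2 of the 8 fits without 1 library. MPC1, a subunit of the mitochondrial pyruvate carrier, was higher with the line as a block (adjusted p = 0.0331). No gene was called among 7 of the pentose phosphate pathway, 4 of gluconeogenesis and 8 of the glycerol and serine branches, where 2, 3 and 2 were under an unadjusted p of 0.05 and DESeq2 called 2, 0 and 2. Under the block the transketolase TKT and the mitochondrial PCK2 were lower (adjusted p = 0.0131 and 0.0246), and no gene of the glycerol and serine branches was called.

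In glycogen metabolism, 2 of 11 genes were lower and none was higher. These were PGM1, which links glucose-1-phosphate and glucose-6-phosphate (107 ± 38.3 to 47.1 ± 7.50 CPM, adjusted p = 0.0353), and the branching enzyme GBE1 (74.4 ± 21.3 to 32.2 ± 3.55 CPM, adjusted p = 0.0234), called in 3 and 2 of the 8 fits without 1 library. Under the block 2 glycogen genes were higher, the glycogenins GYG1 (log2 ratio 1.27, adjusted p = 0.0145) and GYG2 (0.39, adjusted p = 0.0424), and 3 were lower, UGP2 being added (adjusted p = 0.0414). Among 7 genes that handle fructose, sorbitol and mannose, MPI was lower (log2 ratio -0.94 ± 0.15 SE, adjusted p = 0.0186) while PMM2 (0.75 ± 0.14 SE, adjusted p = 0.027) and the fructokinase KHK (0.74 ± 0.18 SE, adjusted p = 0.0481) were higher, in 4, 2 and 1 of those 8 fits. Under the block PMM1 was lower too (adjusted p = 0.0223). The genes named in these lists for a call under the block were chosen after their values were seen. Over all genes tested, 6.97% were called in either direction.

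**Figure D5:**
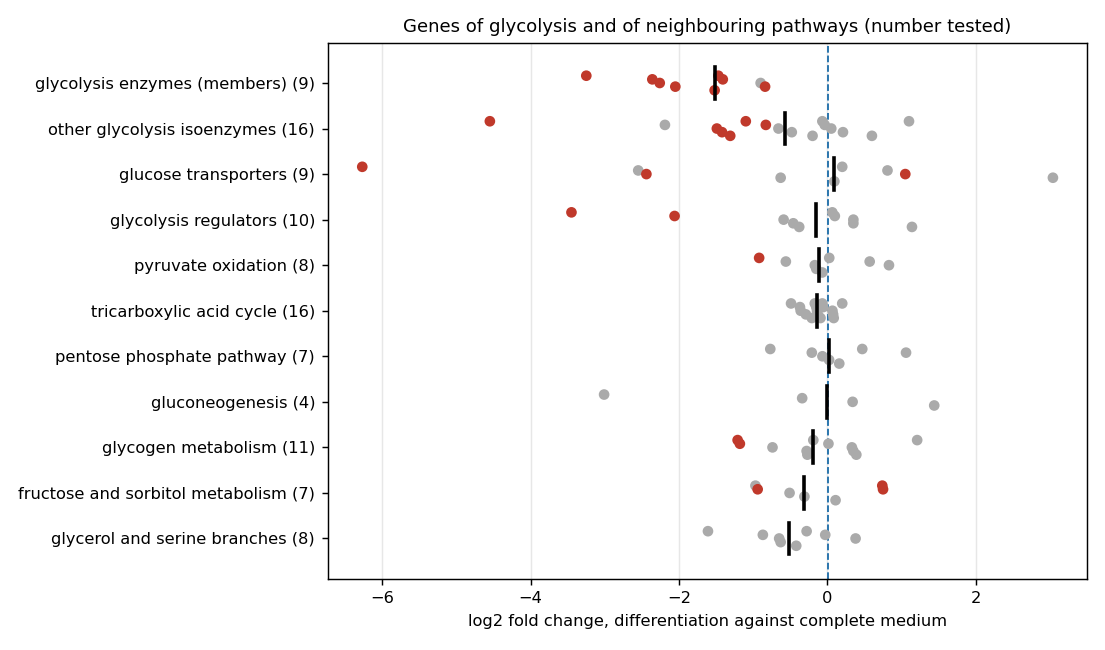
Log2 ratio of each gene tested (points) among the 9 glycolysis enzyme genes, the other isoenzymes and 9 neighbouring lists, with the number tested in brackets, the median of a list as a black bar and the median of all genes tested as a dashed line. Red points had an adjusted p under 0.05 in edgeR; the 9 glycolysis enzyme genes have a median of -1.52 and the tricarboxylic acid cycle genes one of -0.14.

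Other measurements moved along with the glycolysis enzyme genes. Of 20 genes of the hypoxia response outside glycolysis, 10 were lower and 1 was higher, with a median log2 ratio of -1.43. Under the block 9 were lower and 2 higher, since KDM3A was no longer called (adjusted p = 0.0502) and HIF1AN was (adjusted p = 0.0195). Those with the smallest adjusted p were EGLN3, given above, BNIP3 (log2 ratio -4.23 ± 0.43 SE, adjusted p = 0.00681), NDRG1 (-2.46 ± 0.26 SE, adjusted p = 0.00728) and DDIT4 (-2.24 ± 0.26 SE, adjusted p = 0.00807). None of 14 proliferation genes was called in edgeR without a block, with 5 under an unadjusted p of 0.05 and 1 lower in DESeq2. The rule on the unadjusted p was met by 27.3% of all genes. With the line as a block, 7 proliferation genes were lower in edgeR and 9 in DESeq2 (adjusted p under 0.05), against 10.4% and 18.0% of all genes. The summed level of the proliferation genes was 857, 400, 574 and 472 CPM in Em, LPN, EPN1 and EPN2 in complete medium and 656, 201, 344 and 359 CPM in differentiation medium, lower in 4 of 4 lines, and TYMS was their most abundant gene. The part of proliferation and of the hypoxia response in the fall of the glycolysis enzyme genes was not tested.

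By RefSeq on the assembly Sscrofa11.1, the 9 genes are spread over several autosomes and the X chromosome. TPI1 (chr5:63839473-63842853) and GAPDH (chr5:64129678-64135194) are near each other on chromosome 5, and GPI (chr6:44038374-44069331) and ENO1 (chr6:69385879-69401664) are both on chromosome 6. HK2 is at chr3:68155656-68231187, PFKP at chr10:67022652-67082336 and PGAM1 at chr14:108822782-108832818. LDHA is at chr2:40814163-40827284 and PGK1 at chrX:62187472-62210321. These genes were matched by symbol, and the custom annotation against which the reads were counted was not used here.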

How the data were processed

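The authors sequenced poly(A) RNA of 4 PPDO lines in 2 media and quantified it with salmon, run in an nf-core workflow on a custom annotation of the pig. The authors deposited estimated counts per row of that annotation, labelled raw. Length scaled counts entered their own tests. Whether the table holds those was not settled by its values; 78.6% of all nonzero entries are whole (within 1e-09). The submitters' processing notes name the builds GRCh38 and Sscrofa11.1 without a role. How reads shared with near-identical copies of a gene were split is not given in the sources used here, so that levels of genes with processed copies, such as GAPDH, are uncertain in this respect.

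Rows of a gene (suffixes -iso and -ext) were summed and rounded, and 8 reporter rows with 0.00142% of all counts were left out. The -ext rows held at most 0.334% of the counts of a member. A symbol was taken from the table for 17569 genes, and for 529 more by Ensembl identifier from a table of gene names. The media were assigned by the sample titles and the column names, since the treatment label names endocrine induction for all 8 samples, and the lines by the column names; no replicate number of a title could be tied to a column. Same-line libraries of the 2 media correlated at 0.400 to 0.657 (4 pairs) once the medium means had been subtracted, and different lines at -0.479 to 0.242 (12 pairs), so that the line, named in the columns, pairs the libraries.

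Counts were tested in R 4.3.3 with edgeR 4.0.16 (TMM factors 0.935 to 1.06, filterByExpr, quasi-likelihood test, medium as sole term, Benjamini-Hochberg over 14475 genes, threshold 0.05). DESeq2 1.42.0, fits with the line as a block, other filters and scalings, sums without -ext rows and fits without 1 library or 1 line were alternatives. Within-line changes used log2(CPM + 0.5). A count of 0 allows 3 counts, 0.0626 to 0.0740 CPM, for counting error only. The fits were also run on simulated data, and no result of those runs is reported here. Tables and plots used pandas 2.3.3, numpy 2.4.6 and matplotlib 3.10.9.

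Named are the 9 members, the isoenzymes tested, up to 4 genes per further list with the smallest adjusted p under 0.05, the most abundant gene of marker lists, and the 8 genes most like the members over the 8 libraries. Some listed genes are counted with their list and not reported here by name. The members and lists were chosen with earlier results of these data known. A planned search of promoters for the letters bound by hypoxia-inducible factors was not run, since no promoter sequence was used here.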

Additional observations from a re-analysis of the deposited data

Results flagged for a closer look

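HK2 changed by 0.75 on the log2 scale in EPN2, whereas it fell by 4.81 in Em, 2.99 in EPN1 and 1.14 in LPN. It is the only member with a line that moved against the others, and with 1 library per line and medium the difference was not tested. In 94 groups of 4 libraries (47 named genes in 2 media), 2 held a library far from the rest, and chance alone marks about 1 group in 20. In differentiation medium Em had the highest level of PGAM2, at 2.70 CPM against 1.36 to 1.49 CPM in the other lines. Em also had the highest level of PDHX there, at 27.5 CPM against 19.1 to 19.6 CPM.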

How the results depend on the processing

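Of 180 refits of the 9 members, 148 kept both direction and side of the threshold, 32 lost the call in the same direction and none reversed. The 148 include every refit of HK2, which had no call to lose, so that all 32 losses were among the other 8 genes. The count of members lower was 8 in the reported fit and in the alternatives on all 8 libraries, except 7 without the expression filter, where the adjusted p of GPI was 0.0526, and it was 4 to 8 without 1 library and 0 to 8 without 1 line. In these fits without a line fewer samples remain, and the genes called over the whole table were 0 to 1207 without 1 line and 70 to 1199 without 1 library, against 1009 in all. The total was 506 without the expression filter, 2884 in DESeq2, 2884 in edgeR with a line block and 5393 in DESeq2 with a line block. Genes of the neighbouring pathway lists and isoenzymes called numbered 17, and 27 in DESeq2, 29 in edgeR with a line block, 42 in DESeq2 with a line block, 2 to 21 without 1 library and 0 to 21 without 1 line. The block changed no call of a member, and the other calls that it changed are given with their lists for the genes reported by name. Scaling moved the median of all genes by at most 0.019 on the log2 scale. Signs turned for isoenzymes near 0. The log2 fold change of LDHB was 0.01 in DESeq2 with a line block, and without 1 library or line it was -0.18 to 0.28 for LDHB, -0.23 to 0.052 for PFKM, -0.20 to 0.25 for BPGM and -0.51 to 0.0081 for ENO3; the cause was not tested. Pseudocounts of 0.1 and 2 CPM left 35 of 36 within-line changes below 0.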
